A study of Mus musculus with 12 samples.

Results

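Copy number was compared between tumour cultures at a late and at an early passage, the number of times a culture has been split and replated. Passage was read from the sample titles. Cultures at passage 7 or lower were early, and cultures at passage 9 or higher were late. This gave 7 of the 12 arrays of the series: the early cultures A394 (passage 5), B86 (6), A202 (6) and A390 (7), and the late cultures B91 (9), A18 (11) and B76 (13). Tumours at passage 8 (A292 and B96), a tumour with arrays at passages 8 and 9 (A382) and a tumour whose title gives no passage entered neither group.

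All cells came from malignant peripheral nerve sheath tumours (MPNST) of P0-GGFβ3 transgenic mice, in which a promoter active in Schwann cells drives GGFβ3, an isoform of the Schwann cell growth factor neuregulin-1. The reference on every array was DNA of wild-type Schwann cells from C57BL/6J mice. A394, A202 and A390 among the early tumours and A18 among the late ones were of the C57BL/6J x SJL/J background, called mixed below. B86 among the early tumours and B91 and B76 among the late ones were C57BL/6J. The late group was therefore 2 of 3 C57BL/6J and the early group 1 of 4, and the labels give no age. Each culture is another tumour, so the comparison of the groups is between tumours. The growth notes speak of at most 5 to 8 passages, and the titles of the late cultures exceed that. Primary outgrowth took place with forskolin, which raises cAMP, and NRG1β, and the tumour cultures were then kept without them, while the Schwann cells were kept in both throughout. DNA carries no expression marker, so the cell type could not be checked against markers.

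Cells in culture gain and lose chromosomes when they divide unevenly, and cells that divide faster can come to dominate the dish. Growth in culture is commonly limited by the Ink4a and Arf products of Cdkn2a, which act through Rb1 and Trp53, and is favoured by Myc. Array comparative genomic hybridisation reads the mean over all cells of a culture, so a small ratio can mean a change in some cells or a small change in all of them.

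The probes at the loci that differed most between cultures are printed here as the array design lists them, with their positions in mm9. They are at Cdkn2a and Myc, the loci with the deepest loss and the highest gain among genes named, at Ccnd2 as an example of chromosome 6, and at Dctn2 and Sdc2, which had the highest late minus early differences among genes with at least 2 probes and groups that did not overlap. The Cdkn2a probe is at chr4:88934358-88934417, the Myc probe at chr15:61818043-61818102, the Ccnd2 probe at chr6:127098305-127098364, the Dctn2 probe at chr10:126718449-126718495 and the Sdc2 probe at chr15:32929860-32929919.
Cdkn2a: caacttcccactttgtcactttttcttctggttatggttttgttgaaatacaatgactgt
Myc: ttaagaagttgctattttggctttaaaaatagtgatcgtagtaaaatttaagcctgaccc
Ccnd2: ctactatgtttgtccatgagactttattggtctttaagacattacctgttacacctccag
Dctn2: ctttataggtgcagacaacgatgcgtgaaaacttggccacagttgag
Sdc2: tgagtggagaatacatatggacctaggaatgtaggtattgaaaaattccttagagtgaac

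The Cdkn2a probe read -3.31 in A394, -5.47 in B86 and -3.07 in B91, and between -0.58 and -0.22 in the other 4 cultures, as log2 of the tumour over the reference signal. The Myc probe read 2.40 in A202, 3.30 in A390 and 4.47 in B76, and between -0.17 and 0.39 elsewhere. Deep loss of Cdkn2a and high gain of Myc were thus each present in cultures of both groups. The Ccnd2 probe lay between -0.29 and 0.07 in the early cultures and read 0.71, 0.12 and 0.38 in B91, A18 and B76. The Dctn2 and Sdc2 probes were highest in a single late culture each, at 1.37 in A18 and 1.74 in B76.

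The spread of log2 ratios between neighbouring probes was 0.180 to 0.246 in the early and 0.199 to 0.226 in the late arrays. No spot was saturated, and on each array 99.4% or more of the probes exceeded background clearly in the 2 channels. The arrays were on 3 slides. A18, B86 and A202 shared slide 1, which was read on another scanner and had 0.930% to 1.99% of spots flagged, against 0.0604% to 0.0930% in the other 4 arrays. Each slide held both groups: A390 and B91 were on slide 2 and A394 and B76 on slide 3. On slides 2 and 3 the early culture was mixed and the late one C57BL/6J. Differences within these slides, given below, are thus of 1 culture against 1, and passage cannot be told apart from strain there. Every array is 1 culture of a separately named tumour, and p-values measure only the spread between these samples.

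No gene and no probe separated the late from the early cultures in the test across the genome. With limma and Benjamini-Hochberg adjustment, 0 of 40726 autosomal probes and 0 of 19940 autosomal genes passed at an adjusted p under 0.05 with a difference of at least 0.2, a background of 0% called. At an unadjusted p under 0.05 limma gave 1762 probes (4.33%) and 931 genes (4.67%). The smallest adjusted p was 0.893 over probes and 0.882 over genes. Groups that did not overlap, with all late values above or all below all early ones, were found for 1304 of 39332 probes measured in all 7 cultures with late higher (3.32%) and for 862 with late lower (2.19%). The same held for 670 of 19623 genes measured in all 7 cultures (3.41%) with late higher and for 419 (2.14%) with late lower. With each array centred on the mode of its ratios instead of the median, the gene counts were 1178 and 137, so the late-higher share of such genes was 89.6% instead of 61.5%. The typical standard error of a gene's difference was 0.141, and only 4 genes differed by at least 1.

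The late cultures had more of the genome gained and more short altered segments, with groups that did not overlap at the main settings. For the short segments this rested on 4 segments of chromosome 6 in B91 and on a margin of 1 segment between A18 and the early culture A390. Profiles were cut into segments of at least 5 probes, and a segment was called gained or lost at a mean of at least 0.2 or at most -0.2. Gained segments held 11.6% of autosomal probes in A394, 23.3% in B86, 17.6% in A202 and 17.6% in A390, and 27.0% in B91, 28.1% in A18 and 32.4% in B76. The lowest late culture, B91, was thus above the highest early one, B86. The means were 17.5% ± 4.77 (SD, n = 4) early and 29.2% ± 2.88 (SD, n = 3) late, and the exact two-sided permutation p was 0.0571 (adjusted over 6 measures 0.171). With 35 ways to split 7 cultures, 0.0286 is the smallest p the design allows, so a single measure cannot pass after adjustment over 6. The difference was 7.67, 9.39 and 20.8 percentage points within slides 1, 2 and 3, 12.5 within the mixed background and 6.45 within C57BL/6J. At a call threshold of 0.3 the groups overlapped, since A18 stood at 8.25% and A394 had 10.3%.

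At the level of whole chromosomes, a median of at least 0.2 was found for 2 chromosomes in A394, 4 each in B86, A202 and A390, 5 each in B91 and A18, and 7 in B76. Chromosome 11, which carries Nf1, Trp53, Egfr and Erbb2, was gained in all 7. Chromosome 6 was gained in B86 and in the 3 late cultures, and without it the gained share still did not overlap between the groups (12.3% to 18.7% early, 22.5% to 28.2% late, exact permutation p = 0.0286, an alternative chosen after seeing the data).

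Called segments under 3 Mb numbered 4 in A394, 7 in B86, 9 in A202 and 11 in A390, and 15 in B91, 12 in A18 and 17 in B76. The late minus early difference in means was 6.92 segments (7.75 ± 2.99 SD, n = 4, against 14.7 ± 2.52 SD, n = 3; exact permutation p = 0.0571, adjusted 0.171). The groups did not overlap, but A18 had only 1 segment more than A390. Of the 12 in A18, 1 was a gain on chromosome 11 with a mean of 0.23, between longer gains of 0.72 and 0.71. Without it, A18 equalled A390. Of the 15 in B91, 4 were on chromosome 6. They included gains with means of 0.39 to 0.43 that lay between longer gains of 0.63 to 0.79. Without these 4, B91 equalled A390. The difference was 4 segments within slides 1 and 2 each and 13 within slide 3, and 4 within the mixed background and 9 within C57BL/6J. With a lower or higher penalty for adding a break (20 or 80 noise variances instead of 40) the groups overlapped, at 15 to 36 early against 24 to 41 late and at 3 to 6 early against 6 to 8 late. They also overlapped with background-corrected signals (4 to 10 early, 7 to 16 late) and at a call threshold of 0.3 (4 to 11 early, 10 to 17 late). They stayed apart with the largest noise of the 7 arrays in every penalty (4 to 7 early, 8 to 12 late). The same held with at least 10 probes per segment (3 to 8, 9 to 14), under mode centring (4 to 11, 12 to 17), at a call threshold of 0.1 and without chromosome 11.

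Many of these short segments recurred at the same place in other tumours, among them gains at the T-cell selection gene family Skint on chromosome 4 and at St6galnac1, which encodes a sialyltransferase, on chromosome 11. Short segments that overlapped no short segment of the same sign in another tumour of the series numbered 0 in A394, 1 in B86, 2 in A202 and 4 in A390, and 5 in B91, 9 in A18 and 8 in B76. These counts also did not overlap between the groups (exact permutation p = 0.0286). In B91, however, 4 of the 5 lay on chromosome 6, and without them B91 fell below A390. Most of these segments also overlapped a longer called segment of the same sign in another tumour. With called segments of any length in the match, 0, 0, 1 and 0 were left in A394, B86, A202 and A390, and 1, 6 and 1 in B91, A18 and B76. The groups then overlapped, since A202 equalled B91 and B76 (exact permutation p = 0.0857; both counts were chosen after seeing the data). The short segments of the early cultures included the gain at Ghr, the growth hormone receptor, in A390, with a mean of 2.97.

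**Figure D1:**
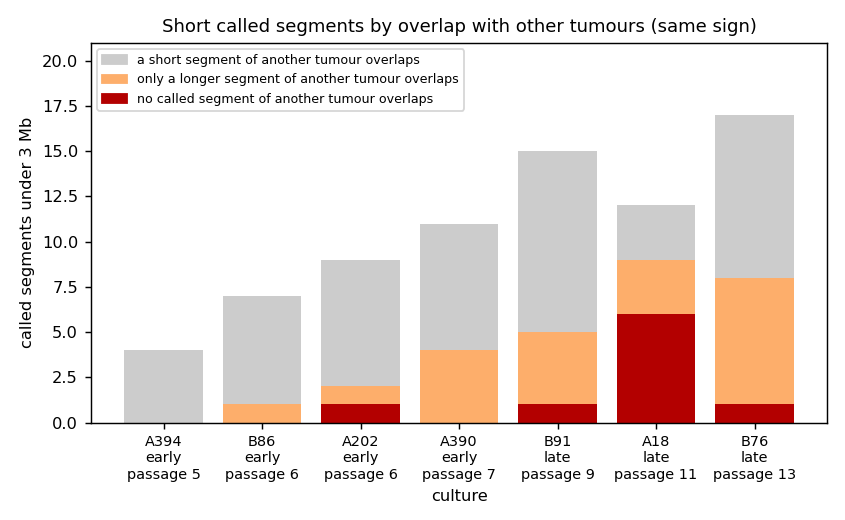
Number of called segments under 3 Mb in each culture (y axis), split by overlap with called segments of the same sign in other tumours of the series: with a short one (grey), with a longer one alone (orange) or with none (red). The orange and red parts together are 0 to 4 in the early and 5 to 9 in the late cultures, and the red part is 0 or 1 in all but A18, which has 6.

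In the late cultures the short segments that matched no short segment elsewhere were of different kinds. A18 had gains of 74 probes on chromosome 10 (mean 1.22) that include Avil, Tsfm and Mettl1, and of 36 probes on chromosome 7 (mean 1.21). It also had losses with means of -0.95 to -0.76 on chromosomes 2, 5, 7 and 14, which include Stk4, Cdk2ap1, Napa and Anxa7. B76 had 5 such gains on chromosome 15, with means of 0.70 to 1.57, at places where B91 was gained at 0.33 and A390 at 0.21 in longer segments. It also had a gain at Lig4 on chromosome 8 with a mean of 1.05. B91 had 4 short segments on chromosome 6 alone, where the whole chromosome was raised. In B76 a further 9 probes around Myc had a mean of 4.36, the highest segment of the 7 cultures. It overlapped a short gain in A202 (mean 2.42) and a gain in A390 (mean 3.00) that, at 3.09 Mb, was not counted as short.

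Segments of any kind numbered 36, 34, 39 and 54 in A394, B86, A202 and A390, and 72, 47 and 63 in B91, A18 and B76. The groups overlapped, since A390 had more than A18 (difference in means 19.9, exact permutation p = 0.0857, adjusted 0.171). The late minus early difference was 4 within the mixed background and 33.5 within C57BL/6J. Called segments numbered 11 to 27 early and 26 to 43 late (exact permutation p = 0.171, adjusted 0.257).

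Lost segments showed no such order. They held 0.187% of autosomal probes in A394, 0.0442% in B86, 30.7% in A202 and 15.8% in A390, and 1.39% in B91, 11.8% in A18 and 7.96% in B76. A202 had lost chromosomes 4, 8, 9, 13, 14, 16 and 19, and A390 chromosomes 9, 16, 18 and 19 (exact permutation p for the lost share 0.714). All called segments together held 11.8% to 48.3% of probes early and 28.4% to 40.4% late (exact permutation p = 0.514, adjusted 0.617).

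**Figure D2:**
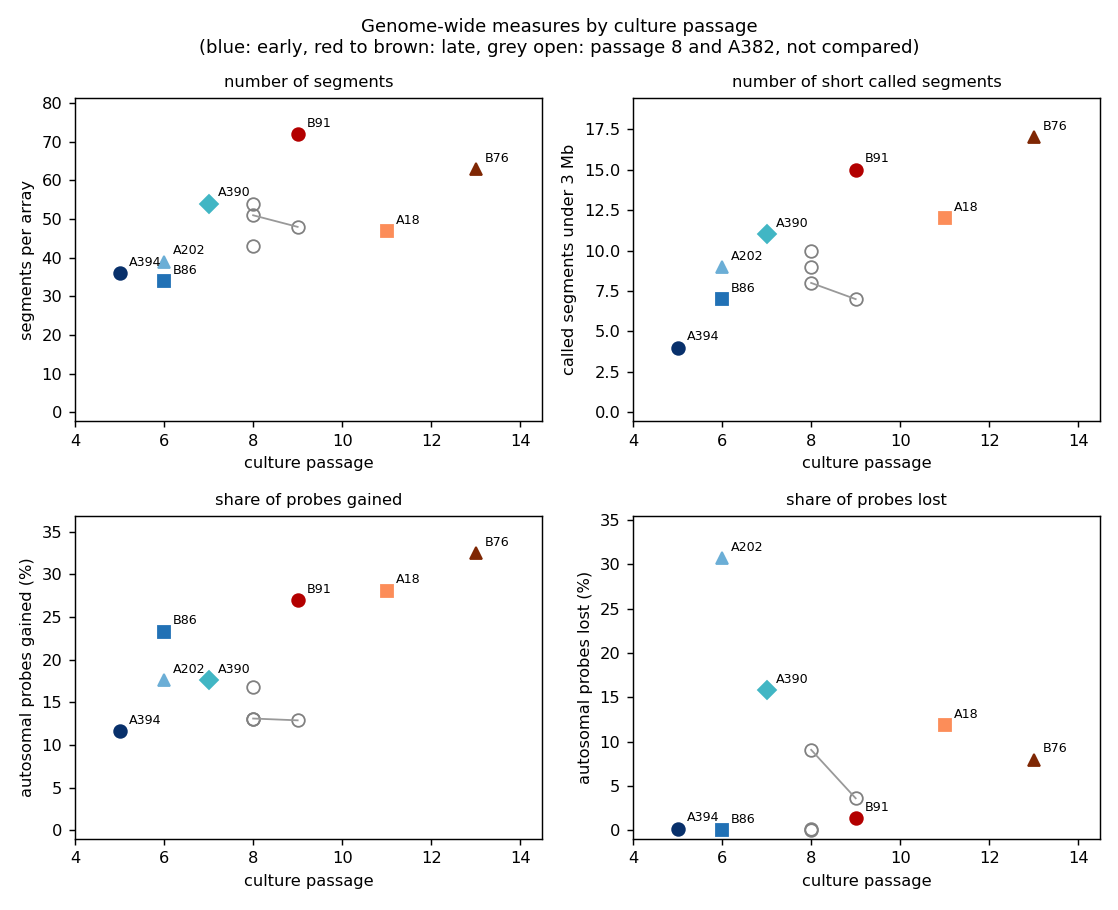
Number of segments, number of called segments under 3 Mb, and percentage of autosomal probes gained and lost (y axes) against culture passage (x axes), 1 point per array. Filled symbols are the 4 early and 3 late cultures, and grey open circles are A292, B96 and the 2 arrays of A382 (joined by a line), which were not compared. The late cultures lie above the early ones in the gained share (27.0% to 32.4% against 11.6% to 23.3%), while A382 at passage 9 has 12.9%.

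Arrays outside the comparison bear on how these measures lie along passage. A382 at passage 9 had 7 short called segments and 12.9% of probes gained, both within the range of the early cultures. With this array counted as late, neither measure separated the groups, and the differences were 5.00 segments and 7.59 percentage points. A292 and B96 at passage 8 had 13.1% and 16.8% gained, and 9 and 10 short called segments.

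Chromosome 6 was higher in the late cultures. This chromosome carries the receptor gene Met, the kinase gene Braf and the cell cycle genes Ccnd2, Cdkn1b and Foxm1. Its median was 0.09 in A394, 0.25 in B86, -0.06 in A202 and 0.10 in A390, and 0.67 in B91, 0.26 in A18 and 0.34 in B76. The 3 late values lay above the 4 early ones, although A18 exceeded B86 by only 0.02. The difference of 0.33 (0.09 ± 0.13 SD, n = 4, against 0.42 ± 0.22 SD, n = 3) had an exact permutation p of 0.0571 (adjusted over 19 autosomes 0.543), and 1 of 19 autosomes (5.26%) had such non-overlap in that direction. With background-corrected signals in place of the deposited ratios, B86 and A18 stood at 0.28 and 0.27, and the groups overlapped.

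The difference on chromosome 6 was 0.17, 0.57 and 0.24 within slides 1, 2 and 3, 0.22 within the mixed background and 0.26 within C57BL/6J. It lay in the tumour channel, whose centred log2 signal on this chromosome differed by 0.30, while that of the reference channel differed by -0.01. In A18 and B86 the whole chromosome was 1 segment, with means of 0.26 and 0.24, and B76 had segments of 0.32 and 0.39. B91 had 8 segments between 0.39 and 0.79 and a loss of 5 probes at Ezh2, which encodes a histone methyltransferase, and Cul1, with a mean of -0.24. In bins of 50 neighbouring probes, 33 of 48 bins had all late cultures above all early ones. The bins largely repeat the level of the whole chromosome and are not separate findings. Such bins were not counted on other chromosomes. The chromosome stood at 0.03 in A382 at passage 9, 0.04 at passage 8, 0.04 in A292 and -0.01 in B96, below the call threshold in each. With A382 at passage 9 counted as late, the difference was 0.23 and the groups overlapped.

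**Figure D3:**
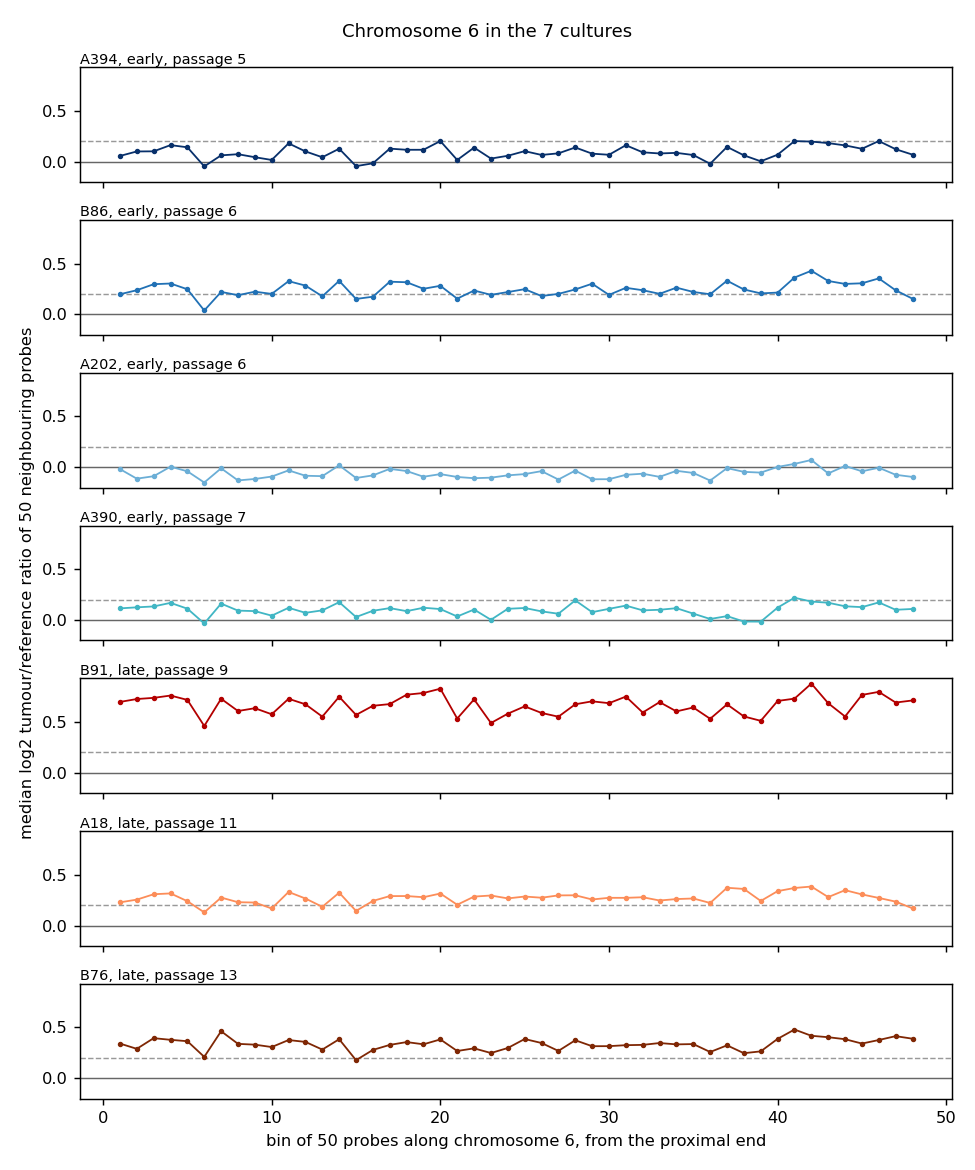
Median log2 ratio of tumour over reference (y axis) in bins of 50 neighbouring probes along chromosome 6 (x axis), 1 panel per culture. The solid line is 0 and the dashed line is the call threshold of 0.2. Bins at or above 0.2 number 48 of 48 in B91, 43 in A18, 47 in B76 and 36 in B86, against 3 in A394, 1 in A390 and 0 in A202.

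Genes on chromosome 6 made up 455 of the 670 genes with all late values above all early ones (67.9%), or 39.7% of the 1147 genes tested there. A further 137 (20.4%) lay on chromosome 15. Ccnd2, a D-type cyclin, ranged from -0.21 to 0.02 in the early cultures and stood at 0.45, 0.11 and 0.18 in B91, A18 and B76. Cdkn1b, which encodes the cell cycle inhibitor p27, was measured with 1 probe, and was -0.26 to 0.16 early and 0.25 to 0.36 late. Foxm1, a transcription factor of mitotic genes, was -0.02 to 0.39 early and 0.96, 0.45 and 0.66 late.

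In Ccnd2, Cdkn1b and Foxm1 the late cultures lay above all early ones, with differences of 0.33 to 0.43, and B91 was highest in all but Cdkn1b. Braf, a Ras effector kinase (difference 0.30 ± 0.14 SE), Met (0.27 ± 0.17) and Tgfa, a ligand of Egfr (0.40 ± 0.17), overlapped between the groups because B86 or A390 exceeded A18. None of the 6 passed limma (adjusted p = 0.882 for each).

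**Figure D4:**
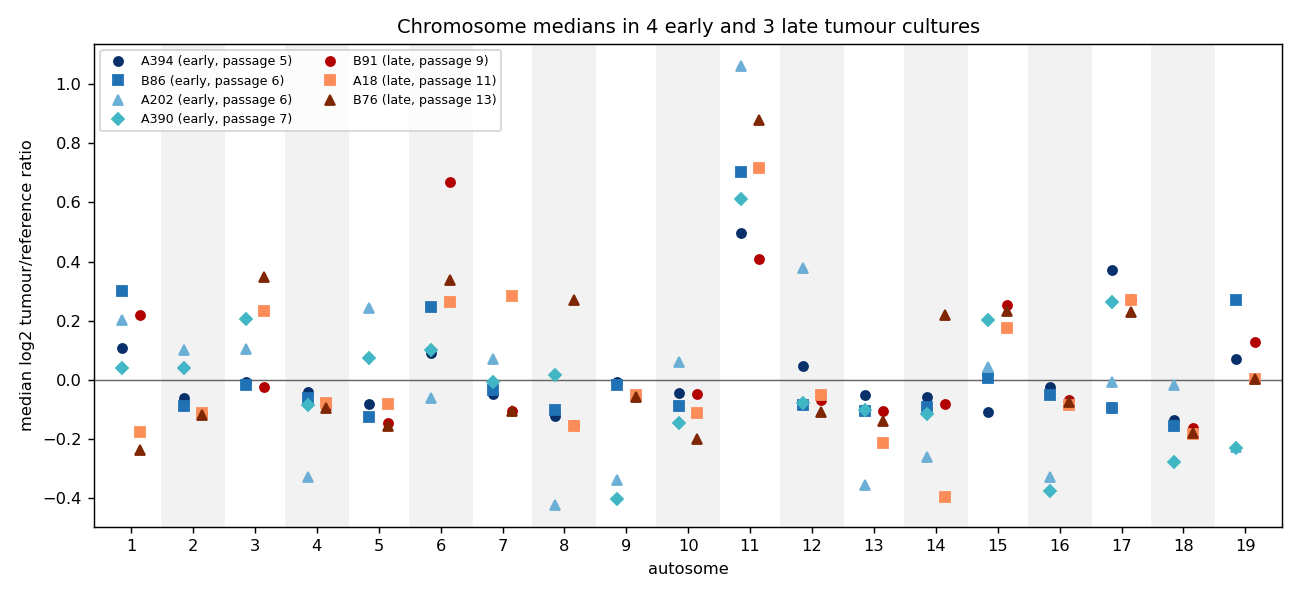
Median log2 ratio of tumour over reference (y axis) on each autosome (x axis) in the 4 early cultures (blue) and the 3 late cultures (red to brown). The late cultures lie above all early ones on chromosome 6 and below all early ones on chromosome 2, and all 7 lie between 0.41 and 1.06 on chromosome 11.

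On the other autosomes the groups mostly overlapped. Late cultures were higher on average on 12 autosomes and lower on 7. In the exact permutation test 0 of 19 passed with adjustment (background 0%), and 0 had an unadjusted p under 0.05. Even at the smallest p the design allows, 0.0286, a single autosome cannot pass after adjustment over 19. The 0 of 19 with adjustment is therefore no sign that the groups are alike. The median absolute difference, 0.12, was below the median pooled SD of 0.15, and 5 of 19 differences exceeded their own pooled SD. Centring on the mode raised the late minus early difference of every autosome by 0.07, and 15 autosomes were then higher and 4 lower.

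Chromosome 2 was lower in the late cultures by a small amount. It stood at -0.06, -0.09, 0.10 and 0.04 in A394, B86, A202 and A390, and at -0.11, -0.11 and -0.12 in B91, A18 and B76. The difference of -0.11 had an exact permutation p of 0.0857 (adjusted 0.543), and 1 of 19 autosomes (5.26%) had non-overlap in that direction. It was -0.14 within the mixed background and -0.03 within C57BL/6J, and under mode centring it was -0.05 and the groups overlapped. Of the 419 genes with all late values below all early ones, 255 (60.9%) lay on this chromosome and 83 (19.8%) on chromosome 5.

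Chromosome 15, which carries Myc, stood at -0.11, 0.01, 0.04 and 0.20 early and at 0.25, 0.18 and 0.23 late. A390 lay above A18, so the groups overlapped (difference 0.19, exact permutation p = 0.0857, adjusted 0.543), and they did not under mode centring. The distal 30.5 Mb, chr15:72890557-103395462 with 957 probes, was called gained in B91 and B76 and in no early culture, with means of 0.21 and 0.22 just past the threshold. A390 had 0.18 there and A18 0.17, just short of it. It holds the Polycomb gene Cbx7, the adenylyl cyclase gene Adcy6, the separase gene Espl1 and the DNA end-joining gene Xrcc6 (Ku70). Xrcc6 was 0.01 to 0.34 early and 0.41, 0.36 and 0.41 late, with a limma difference of 0.21 ± 0.12 (SE; adjusted p = 0.882).

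Chromosome 1 had the most negative difference, -0.23, but with B91 apart from the other late cultures. Its median was 0.11, 0.30, 0.20 and 0.04 early, and 0.22 in B91, -0.18 in A18 and -0.24 in B76 (exact permutation p = 0.2, adjusted 0.740). Within slide 2, which holds B91, the difference was 0.18. Most of the chromosome, chr1:23373324-172353074 and 2 parts distal to it, was called lost in A18 and B76, with means of -0.27 to -0.21, and in no early culture. The probes called lost in at least 2 late and no early culture were 2417 (5.93% of autosomal probes), all on this chromosome. Those called gained in at least 2 late and no early culture were 976 (2.4%), mostly on distal chromosome 15.

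Over the lost part of chromosome 1, Erbb4, a neuregulin receptor gene, was 0.13 to 0.32 early, 0.47 in B91, and -0.32 and -0.25 in A18 and B76. Creb1, the cAMP response factor, was 0.07 to 0.36 early, 0.27 in B91, and -0.13 and -0.22 in A18 and B76. Xrcc5 (Ku80) and Parp1, both DNA repair genes, and Mdm4, which encodes an inhibitor of p53, followed the same split, at -0.12 and -0.22, -0.13 and -0.16, and -0.21 and -0.38 in A18 and B76. Their limma differences of -0.27, -0.25 and -0.19 had an adjusted p of 0.882 each. A shorter stretch on chromosome 7, chr7:19999196-20191618, was called gained in A18 and B76 (means 0.27 and 0.48). In A18 it was part of a gained segment of 135 Mb, and only in B76 was it a short segment, of 17 probes. Ppp1r37 there was 0.14 in A18 and 0.91 in B76. Mark4 was -0.20 and 0.49, and Bloc1s3, read by 1 probe, 1.02 and 0.93. No stretch was called in at least 3 early and no late culture.

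The senescence and immortalisation genes did not pass in any number. Of 22 genes in the list 20 were measured, 0 passed, 12 were higher and 8 lower on average in late cultures, and the median difference was 0.09. Over all genes, 10854 were higher and 9086 lower, and the median was 0.02. In 2 of the 20, Ccnd2 and Cdkn1b on chromosome 6, all late values lay above all early ones, against 3.41% of all genes. Cdkn2a had the largest difference, 1.16 ± 1.05 (SE), with 2 of 4 early cultures (A394 -3.52, B86 -5.19) and 1 of 3 late cultures (B91 -3.35) in deep loss. A202, A390, A18 and B76 stood at -0.42, -0.17, -0.06 and -0.09. The locus was thus not in deep loss in A18 and B76, the cultures at the highest passages.

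The neighbouring metabolic gene Mtap was lost in B86 (-2.79) and B91 (-3.48), and stood at -0.27 in A394. The lost segment at Cdkn2a held 5 probes in A394, starting at the last Mtap probe, and 8 in B86 and B91. A further lost segment lay near it in B86 (5 probes, mean -1.71) and in B91 (6 probes, mean -1.68). Myc was 2.40 and 3.30 in A202 and A390 and 4.47 in B76, and -0.17 to 0.39 in the others (difference 0.35 ± 0.96 SE, limma adjusted p = 0.948). Without B76 its difference was -1.04. In these 7 cultures the 3 with deep loss of Cdkn2a and the 3 with high Myc were separate, and A18 had neither. Trp53, on chromosome 11, was 0.88 to 1.39 early and 0.40 to 1.33 late. Its lowest value was in A18, where its probe lay in a segment of 90 probes with a mean of 0.23. The segments on either side of it in A18 had means of 0.72 and 0.71. Tert, the catalytic subunit of telomerase, was -0.59 to -0.23 early and -0.35 to -0.28 late.

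Among 15 nerve sheath tumour suppressors, 7 were higher and 8 lower, with a median of -0.05 and no non-overlapping groups. Rb1 was at -0.61 in A202 and -0.58 in A18, and at 0.59 in B76. Nf1 was 0.49 to 1.02 early and 0.37 to 0.78 late, Nf2 0.57 to 1.29 and 0.24 to 0.98, and Suz12 0.50 to 1.03 and 0.35 to 0.78. In every one of these 3 the late range overlapped the early range widely.

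**Figure D5:**
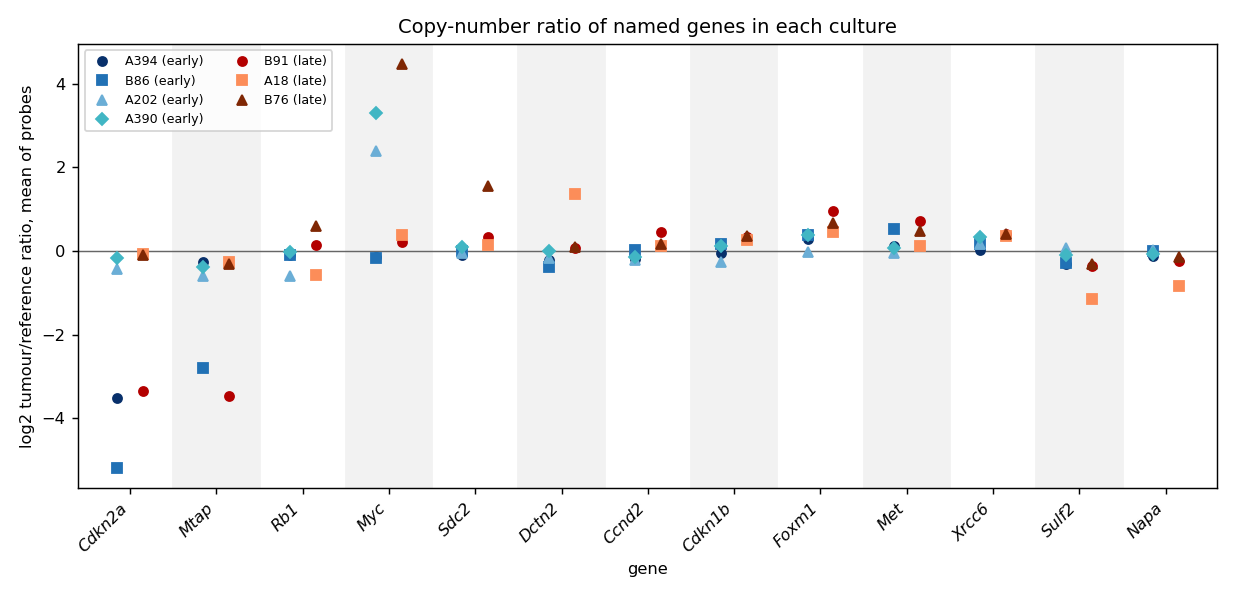
Log2 ratio of tumour over reference (y axis; mean of each gene's probes) for 13 named genes (x axis) in the 4 early cultures (blue) and the 3 late cultures (red to brown). Deep loss of Cdkn2a is in A394, B86 and B91, and high Myc in A202, A390 and B76.

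Growth factor receptors and their ligands had a median difference of -0.03 over 17 measured genes. In 1 of the 17, the receptor gene Kit on chromosome 5, all late values lay below all early ones (2.14% of all genes). Kit stood at -0.02 to 0.29 early and -0.11 to -0.04 late. Under mode centring B91 lay above B86, and the Kit groups overlapped. Egfr was 0.46 to 0.87 early and 0.46 to 0.95 late, Erbb2 0.25 to 0.97 and 0.16 to 0.70, Erbb3 0.10 to 0.36 and 0.09 to 0.15, and Nrg1 -0.56 to -0.22 and -0.36 to 0.09. Pdgfra, a receptor of platelet-derived growth factor, stood at -0.65 to -0.10 early and -0.82 to -0.56 late (difference -0.25 ± 0.15 SE).

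Of 18 Ras, MAPK and PI3K signalling genes, 13 were higher and 5 lower on average, and the median was 0.04. Of the 18, the kinase gene Akt1 had groups that did not overlap (lower, as in 2.14% of all genes). It was at -0.20 to 0.33 early and -0.28 to -0.21 late. Under mode centring B91 lay above B86, and the Akt1 groups overlapped. The cAMP and forskolin response genes, 15 in number, had a median of 0.04 and no non-overlapping groups. Adcy6 on distal chromosome 15 was -0.42 to -0.12 early and -0.24, 0.24 and -0.13 late.

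Of 16 measured mitosis and chromosome segregation genes, 10 were higher and 6 lower, with a median of 0.06. Foxm1 (higher) and Aurka, a mitotic kinase gene on chromosome 2 (lower, difference -0.09), had groups that did not overlap. This was 1 gene in each direction, against 3.41% higher and 2.14% lower over all genes. For Aurka, A394 and B91 both stood at -0.06, and under mode centring its groups overlapped. Espl1 was -0.38 to -0.06 early and 0.06, -0.10 and 0.07 late. Of 15 DNA damage response genes 7 were higher and 8 lower (median -0.01), and Xrcc6 had groups that did not overlap (higher, as in 3.41% of all genes). Lig4, which joins DNA ends, was 0.95 in B76, and between -0.58 and 0.07 in the other cultures.

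Schwann cell lineage genes had a median of -0.04 over 11 measured members. Sox2 and Egr2, transcription factors of the immature and the myelinating Schwann cell, were at -0.03 to 0.33 and -0.05 to 0.25 early and at 0.10 to 0.42 and -0.05 to 0.00 late. Genes at loci whose copy number varies among inbred mouse strains had a median of -0.08 over 15 measured genes, and 0 of them had non-overlapping groups. Alad, an enzyme gene of haem synthesis, was at 1.40 in A202, 1.58 in A390 and 1.08 in A18, all of the mixed background. It was at 0.01 to 0.12 in the other 4, which include A394, also mixed. Of the mixed tumours not compared, the one without a passage had 1.65. A292 had 0.11, as had A382 at passages 8 and 9. Itln1 was at -1.35 in B86, -1.08 in B91 and -1.29 in B76, the C57BL/6J tumours, and -0.51 to 0.32 in the mixed ones compared. Low Itln1 was not confined to C57BL/6J in the series. Among mixed tumours not compared, it was at -1.97 in the one without a passage and -1.17 in A292. In A382, also mixed, it was at 0.004 and -0.10.

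Among genes with at least 2 probes and groups that did not overlap, the highest differences rested on single cultures. Dctn2, a dynactin subunit, stood at -0.38 to -0.01 early and at 0.06 in B91, 1.37 in A18 and 0.08 in B76 (difference 0.70 ± 0.25 SE). Without A18 its difference was 0.27. The nearby hedgehog effector gene Gli1 was at 1.64 in A18, and at -0.44 to -0.11 in the other 6. Sdc2, a heparan sulphate proteoglycan gene on chromosome 15, stood at -0.10 to 0.09 early, and at 0.33, 0.15 and 1.56 in B91, A18 and B76 (0.70 ± 0.25 SE), and without B76 its difference was 0.26.

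Slc6a11, a GABA transporter gene on chromosome 6 (0.57 ± 0.17), AK164165 on chromosome 16 (0.54 ± 0.16) and Prmt9, an arginine methyltransferase gene on chromosome 8 (0.54 ± 0.18), had smaller differences. Leaving out any single culture kept the differences of these 3 between 0.37 and 0.67. AK164165 and Prmt9 were below 0 on average in both groups, at -0.85 and -0.65 early and at -0.31 and -0.11 late.

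In the other direction, Sulf2, a heparan sulphatase gene on chromosome 2, was -0.31 to 0.07 early and -0.35 in B91, -1.15 in A18 and -0.32 in B76 (difference -0.45 ± 0.19 SE). Napa, which encodes a protein of vesicle fusion and lies in a segment lost in A18 on chromosome 7, was -0.12 to 0.02 early and -0.25, -0.84 and -0.14 late (-0.37 ± 0.16 SE). Without A18 their differences were -0.18 and -0.15. Galnt9 (-0.32), Psen2 (-0.30) and Cep170b (-0.27), on chromosomes 5, 1 and 12, had smaller differences. Under mode centring, Cep170b alone among these lowered genes kept groups that did not overlap. All 10 genes had a limma adjusted p of 0.882.

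A382 is the culture in which passage was varied within a tumour, with 1 array at passage 8 and 1 at passage 9. Its chromosome medians differed by a median of 0.01 between the arrays, and by at most 0.11, on chromosome 11. The call was the same for 93.1% of autosomal probes. Most of the difference was a loss called only at passage 8 for 5.48% of probes, chiefly 2153 probes of chromosome 8, whose mean of the segment levels was -0.21 at passage 8 and -0.20 at passage 9, on either side of the threshold. Segments numbered 51 and 48, and called segments under 3 Mb 8 and 7. These 2 arrays were on different slides and have no replicate, so no test was made.

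The X chromosome was kept apart, since it depends on the sex of the animal, which the labels do not give. Its median was 0.50 ± 0.47 (SD, n = 4) early and 0.21 ± 0.38 (SD, n = 3) late, and the exact permutation p was 0.371.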

How the data were processed

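DNA copy number was measured on 2-colour Agilent mouse arrays, with tumour DNA in Cy5 and Schwann cell DNA in Cy3 and no dye swap. Per the file headers, the scanner software subtracted background and normalised the dyes linearly, and the deposited value is the log10 of Cy5 over Cy3. The deposited files also give each channel's intensity. Agilent Feature Extraction 9.5 and the mm9 build stand in the submitters' processing notes, and no mm9 annotation was used here, so exon positions are not given. Ratios were converted to log2, flagged spots were set to missing, spots of a probe were averaged and each array was centred on its autosomal median (40726 autosomal probes). Gene values are means of a gene's probes, with names from the files, updated through RefSeq accessions for 28945 of 29337 probes that carry one. The series value table holds the same log10 ratios.

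Late minus early was tested with limma 3.58.1 in R 4.3.3 over all probes or genes, and single values with an exact two-sided permutation test over samples. Segments were found by penalised least squares (penalty 40 noise variances per break, at least 5 probes, values limited to 3 noise SD about a running median of 5 probes), in Python 3.11.15 with numpy 2.4.6. The code was tested on simulated data. The number of arrays limits the precision. The groups, the lists of genes and the naming rule were set with earlier results of these data known. The rule took the 5 highest and 5 lowest differences among genes with at least 2 probes and non-overlapping groups (1 per chromosome), up to 4 members of each of 9 lists, up to 3 genes of each stretch called in one group alone, and 18 genes whatever their values, some of them not measured. A few genes of the lists are not reported here and were left out of the list counts. St6galnac1, Skint, Ghr, Ezh2 and Cul1, Kit, Aurka and the genes of the short segments were named after their values were seen. Alternatives were the background correction, the centring, the spots kept, the penalty and call threshold, slide, strain background, passage as a number, and leaving out each culture.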

Additional observations from a re-analysis of the deposited data

Results flagged for a closer look

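In 4 of the genes named, 1 early culture stood apart from the other 3, with a gap to its nearest neighbour that was a large share of the range of the 4 values. This share was 0.872 for Rb1, on chromosome 14, where A202 stood at -0.61. It was 0.949 for Tert, on chromosome 13, again with A202 lowest, at -0.59. It was 0.872 for Mtap, where B86 stood at -2.79, and 0.836 for Klra22, a natural killer receptor gene on chromosome 6, where B86 was highest at 1.07. Chance alone marks about 1 in 20 such groups, and 60 genes were examined.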

How the results depend on the processing

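No probe, gene or chromosome passed under any alternative run except with strain background as a covariate. There 2 genes passed limma (Mars1 and Trim28, each read by 1 probe that gave no value in B86, with the smaller adjusted p at 0.0236). Without B86 no early C57BL/6J culture was left for these 2 genes. Their adjusted difference therefore rested on A18 alone against the early mixed cultures. With passage as a number, the smallest adjusted p in limma was 0.0512, against 0.882 for late against early. With each culture left out in turn, limma passed 0 probes and 0 genes. For chromosomes 6 cultures are too few for the exact test to pass, so its count of 0 says nothing there. With every culture kept, a single chromosome could not pass after adjustment either. The ranges over cultures left out were 14.3 to 26.8 for the difference in segments, 11.0 to 19.5 for called segments, 5.67 to 8.25 for short ones, and 9.69 to 13.6, -8.49 to 1.73 and 1.25 to 13.4 percentage points for the shares gained, lost and called. The direction turned for the share lost at a threshold of 0.1 (10.4), within slide 3 (7.77) and within C57BL/6J (4.63), for the share called at a threshold of 0.3 (-0.825) and within slide 2 (-4.99), and for chromosome 1 within slide 2 (0.18). No paired analysis was possible by replicate number because the titles carry none. With slide as a block, limma passed 0 probes and 0 genes. The lowest adjusted p of a named gene in any alternative was 0.480, and 45 of 1080 values over 16 genes turned sign. With A382 at passage 9 as late these were Myc (-0.10), Egr2 (0.014), Mdm2 (0.072), Nf1 (0.0053), Suz12 (0.017), Erbb2 (0.0038) and Erbb3 (0.017). With the strain covariate they were Itln1 (0.052), Mtap (0.50), Tert (-0.0080), Egfr (-0.042) and Erbb2 (0.0098), and with passage as a number Mtap (0.31), Nf1 (0.022), Suz12 (0.026) and Erbb2 (0.043). Under mode centring they were Mdm2 (0.0084), Suz12 (0.00096) and Erbb2 (0.0086), with background-corrected signals Nf2 (0.033) and Egfr (-0.016), with loess Egfr (-0.027), with a slide block Tert (-0.0061) and Erbb2 (0.0058), and with flagged spots kept Tert (-0.061). Without A394 they were Myc (-0.15) and Egfr (-0.062), without B86 Myc (-0.16) and Egfr (-0.0083), without A202 Mdm2 (0.0082), Tert (-0.081), Nf1 (0.030), Suz12 (0.050) and Erbb2 (0.084), without B91 Mtap (0.72), Nf1 (0.028), Suz12 (0.065) and Erbb2 (0.099), without A18 Tert (-0.017) and Gli1 (-0.049), and without B76 Myc (-1.04), Rb1 (-0.015), Lig4 (-0.037), Egfr (-0.14) and Nrg1 (-0.0021). The causes were not tested. With 3 against 4 cultures, strain, slide and passage are partly confounded.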
